A study of Mus musculus with 9 samples.

Results

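The genes described here are the D cyclins Ccnd1, Ccnd2 and Ccnd3, their kinase partners Cdk4 and Cdk6, the inhibitors Cdkn1b, Cdkn2a, Cdkn2b and Cdkn2c, and the retinoblastoma gene Rb1. They are 10 of the 18193 genes that had a probe set assigned to them alone, and were chosen by name for their place in 1 pathway. Together they had 26 probe sets, and each gene was represented by the one with the highest mean over the arrays. Of the 10 genes, 9 lay above the limit for dim probe sets and were tested; Cdkn2a did not and is described by its level.

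D cyclins are made when growth signals reach a cell. They bind Cdk4 or Cdk6 and the active kinase phosphorylates the retinoblastoma protein, which then releases E2F transcription factors and lets the cell pass from G1 into DNA replication. The INK4 inhibitors, among them the products of Cdkn2a, Cdkn2b and Cdkn2c, bind Cdk4 and Cdk6 directly, whereas p27, the product of Cdkn1b, belongs to the CIP/KIP family and also restrains cyclin E and cyclin A kinases. In thymocytes cyclin D3 is the D cyclin required for expansion of immature cells after pre-TCR and Notch signalling, and the Cdkn2a and Cdkn2b locus is often deleted in human T cell acute lymphoblastic leukemia (T-ALL).

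The series concerns T-ALL and what an excess of NOTCH1, a receptor that directs T lineage commitment, does short of malignancy. Sorted mouse cells gave the RNA for 9 Affymetrix arrays, 3 for each of the labels Control, Abnormal non-malignant and NIC Tumor. The labels give no strain, genotype, age, allele or time, do not spell out NIC and do not name the sorted population. Whether the 3 samples of a group are different animals is not stated either, and the p-values therefore measure only the spread between these samples, which may be technical. Values are log2 probe set values as deposited, so a difference of 1 is a 2-fold change, and a probe set's level says nothing about its level relative to another probe set's.

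The arrays had medians of 5.67 to 5.77. The SD over probe sets was 1.97 on tumor array 3, against 2.12 to 2.19 on the others. That array also had the highest 40th percentile, 5.30. All 8 T cell markers with a probe set, among them Cd3e, Cd3d and Cd3g, lay above the dim limit on every array, with a log2 summed level of 15.31 to 15.52 in the control arrays, 15.20 to 15.40 in the non-malignant ones and 14.49 to 15.03 in the tumor ones. Of these 8 markers, 4 fell in tumors against controls (Thy1, Cd5, Cd247 and Lat) and none rose. Over all genes 7.19% were called lower and 8.48% higher there. Cd2, another of the 8 markers, rose in non-malignant samples against controls (1.42, limma adjusted p = 0.0072, against 2.87% of all genes called higher). It differed by 0.56 in tumors against controls (adjusted p = 0.122). The part of these markers in the results below was not tested. Arrays 2 and 3 of the non-malignant group differed least from each other (SD of their differences over genes 0.156, against 0.303 to 1.05 for the other pairs). Tumor array 1 lay nearer to the non-malignant arrays (0.462 to 0.469) than to tumor arrays 2 and 3 (0.625 and 0.790), and tumor array 3 had the highest signal of the bioB spike-in control (10.67, against 7.22 to 9.05) and of 18S ribosomal RNA (10.94, with non-malignant array 3 at 10.70 and the others at 5.67 to 8.02). Over all genes the SD within a group, as a root mean square, came to 0.269 for controls, 0.227 for the non-malignant group and 0.489 for tumors, and the fit uses 1 spread for all 3 groups.

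In tumors against controls, Cdk4 and Cdk6 rose while Ccnd3, Cdkn2c and Rb1 fell. These were 5 of the 9 genes tested, 2 higher and 3 lower, against 15.7% of all 13296 genes called by limma in this comparison (8.48% higher and 7.19% lower). The tumors did not overlap the controls for 6 of the 9, those named and Cdkn1b, against 32.5% of all genes, and 6 had an unadjusted p under 0.05, against 32.2%. The median absolute log2 difference of the 9 genes was 1.00, beside 0.315 over all genes. In a fit of tumors and controls alone only Ccnd3 and Cdk4 passed. Tumors against controls cannot separate malignancy from what the tumors share with the non-malignant samples.

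In the abnormal non-malignant samples against controls, the comparison that addresses NOTCH1 excess without malignancy, none of the 9 genes passed by limma (0 of 9, against 3.53% of all genes, 2.87% higher and 0.654% lower), with 2 of them, Ccnd2 and Cdk4, at an unadjusted p under 0.05, against 13.3% of all genes. Ccnd2, Cdk4 and Cdk6 lay higher and Cdkn1b lower than in every control, which makes 4 of 9 without overlap, against 26.1% of all genes. For Cdkn1b the margin was narrow, with 10.624 as the highest non-malignant value and 10.627 as the lowest control value. Its second probe set differed by 0.008, with overlap. The median absolute log2 difference of the 9 genes was 0.272, beside 0.160 over all genes. Both comparisons share the 3 controls. In tumors against non-malignant samples Ccnd3 alone passed, lower in the tumors (1 of 9, against 4.23% of all genes in either direction and 2.7% lower), and 4 of 9 had no overlap, Ccnd3, Cdk4, Cdkn2c and Rb1, against 27.1% of all genes. Without tumor array 1 the same comparison called 5 of the 9, adding Cdk4, Cdkn1b, Cdkn2c and Rb1, while the count over all genes went from 562 to 3408.

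**Figure D1:**
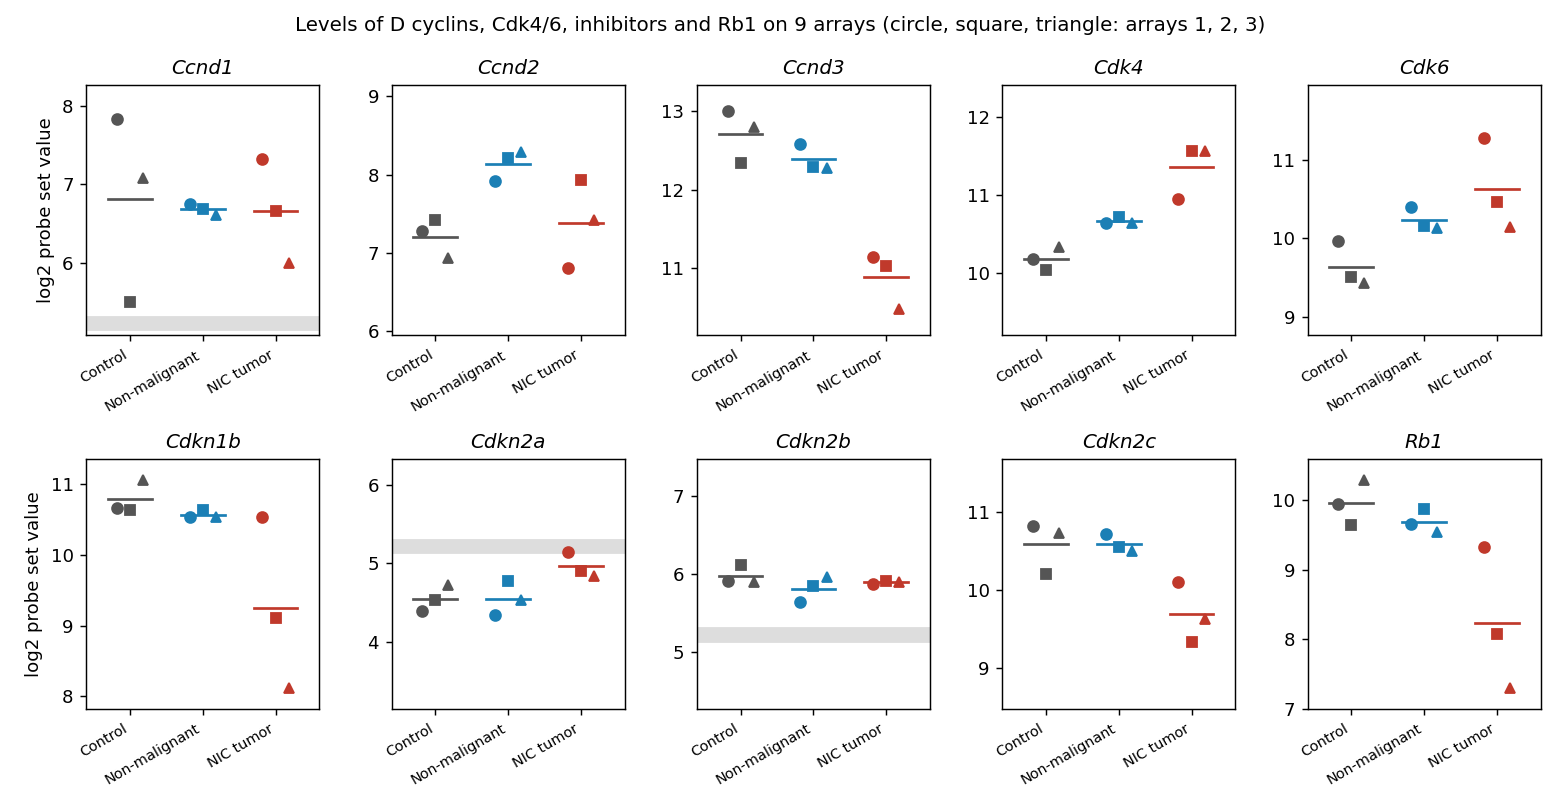
Log2 probe set value (vertical axis, a separate range for each gene) of the 10 genes in the controls, abnormal non-malignant samples and NIC tumors; circles, squares and triangles are arrays 1, 2 and 3, bars are group means, and the grey band spans the 40th percentiles of the 9 arrays (5.14 to 5.30). The 3 tumors lie below all other arrays for Ccnd3, Cdkn2c and Rb1 and above them for Cdk4, and Cdkn2a lies in or under the grey band.

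Among the D cyclins, Ccnd3 was the one that changed in the tumors. It read 13.01, 12.34 and 12.80 in controls 1, 2 and 3, 12.58, 12.30 and 12.28 in the non-malignant samples and 11.14, 11.03 and 10.47 in the tumors. Every tumor lay below every other array, and controls and non-malignant samples overlapped. The group means were 12.72 ± 0.34, 12.39 ± 0.17 and 10.88 ± 0.36 (SD, n = 3 each). The tumors were 3.57-fold lower than controls (log2 difference −1.84 ± 0.22 SE, limma adjusted p = 0.00117) and 2.84-fold lower than non-malignant samples (−1.51 ± 0.22, limma adjusted p = 0.00857). Against controls the call held in all 9 fits that left out 1 array, at −2.02 to −1.63, and in the 12 other settings tried. Against non-malignant samples it held in the 9 fits without 1 array and ended with the mean of all probe sets (−1.39, adjusted p = 0.0833).

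The other probe sets of Ccnd3 gave the same direction in tumors against controls. Fitted one by one, the 3 probe sets differed by −1.84, −1.86 and −2.60, with adjusted p of 0.00224, 0.0332 and 0.0389, and none overlapped between the groups. They did not behave alike in the non-malignant samples. One of them read 10.50, 10.05 and 9.52 in controls and 9.25, 8.15 and 8.21 in non-malignant samples, a difference of −1.49 (adjusted p = 0.422) without overlap, while the other 2 differed by −0.33 and −0.31 and overlapped. That probe set also spread most among the tumors, at 8.90, 7.52 and 5.85. In tumors against non-malignant samples the 3 probe sets, fitted one by one, differed by −1.51, −1.55 and −1.12. Their limma adjusted p were 0.0164, 0.113 and 0.356, so only the representing probe set passed. The last, which is the probe set with the wide spread, overlapped between these groups.

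Ccnd2, which encodes the D cyclin that responds to cytokine and mitogen signals in lymphocytes, was highest in the non-malignant samples. It read 7.28, 7.42 and 6.93 in the controls, 7.92, 8.21 and 8.28 in non-malignant samples and 6.81, 7.94 and 7.42 in tumors. The non-malignant samples lay above all controls, and the tumors overlapped both groups. The difference between non-malignant samples and controls was 0.93 ± 0.27 (SE, 95% interval 0.31 to 1.54), with an adjusted p of 0.127 that did not pass. It passed without tumor array 1 (adjusted p = 0.0322) and with only these 2 groups in the fit (adjusted p = 0.0143), both of which leave its value as it is and change the estimate of the spread. All 5 Ccnd2 probe sets above the dim limit were higher in non-malignant samples than in the controls, by 0.34 to 0.93, 3 of them without overlap. With 1 of the 5 left out, which passed the dim filter only through the other groups, they were lower in tumors than in non-malignant samples, by 0.43 to 0.97. Of these, 1 passed when every probe set was fitted on its own (−0.97, adjusted p = 0.0352, against 1.5% of all probe sets called there). For the representing probe set this difference was −0.75 (adjusted p = 0.131). The difference between tumors and controls was 0.18, with a 95% interval of −0.43 to 0.79 (adjusted p = 0.679). With array weights it was 0.62 and passed (adjusted p = 0.0413). The level of 2 further Ccnd2 probe sets was under the dim limit on all 9 arrays. The probe set left out above exceeded the 40th percentile on 2 control, 2 non-malignant and 0 tumor arrays, so nothing is read from its level in tumors.

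Ccnd1, the D cyclin of many epithelial and stromal cells, varied more within groups than between them. It read 7.84, 5.50 and 7.09 in the controls, 6.75, 6.68 and 6.61 in non-malignant samples and 7.32, 6.66 and 5.99 in tumors. The widest spread was among the controls, which enclosed all the other arrays. The differences from controls were −0.13 in non-malignant samples (95% interval −1.30 to 1.05) and −0.15 in tumors (−1.32 to 1.02), and neither passed. Its 3 probe sets did not order the tumors alike: a second one gave 5.99, 6.44 and 7.18 on tumor arrays 1, 2 and 3, so that tumor array 3 was the lowest tumor by the first and the highest by the second. The 11 thymic stroma markers had a log2 summed level of 9.79 to 10.05 over the control and non-malignant arrays and 9.95 to 10.51 over the tumor arrays, and their part in the Ccnd1 signal was not tested.

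**Figure D2:**
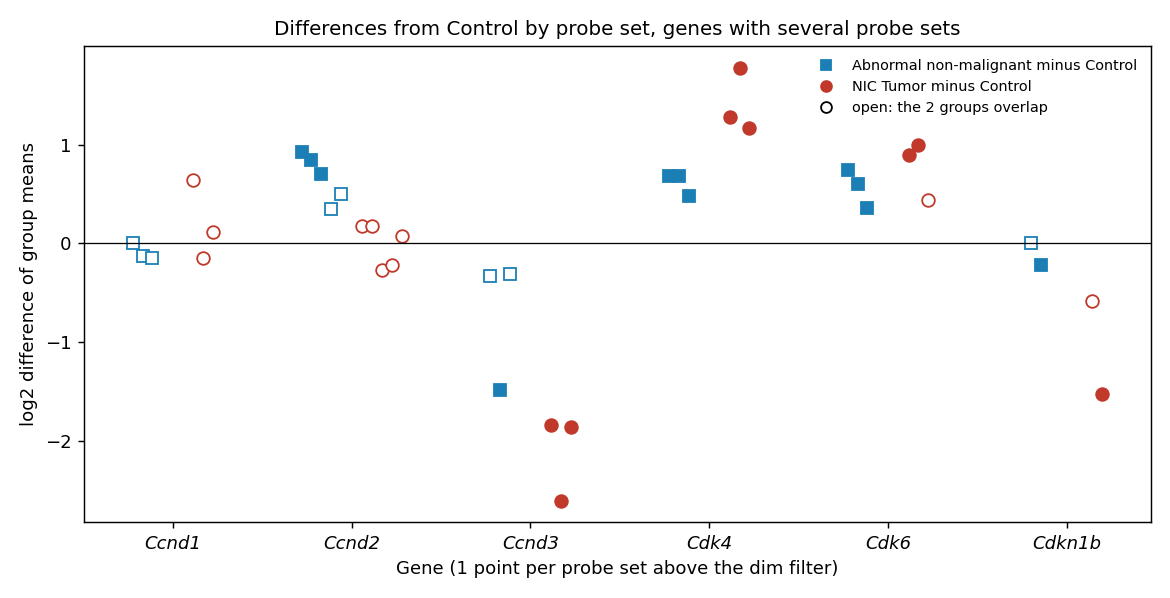
Log2 difference of group means from controls (vertical axis) for each probe set above the dim limit of the 6 genes with several such probe sets; blue squares are non-malignant samples, red circles tumors, and open symbols mark groups that overlap. All 3 probe sets of Cdk4 are filled and above 0 in both comparisons, all 3 of Ccnd3 are filled and under −1.8 in tumors, and those of Ccnd1 scatter around 0.

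Cdk4, the catalytic partner of the D cyclins, rose in the tumors, with the non-malignant samples in between. It read 10.18, 10.05 and 10.33 in the controls, 10.64, 10.72 and 10.64 in non-malignant samples and 10.95, 11.57 and 11.56 in tumors. No 2 of the groups overlapped. The tumors were 2.25-fold above controls (log2 difference 1.17 ± 0.19 SE, limma adjusted p = 0.00451), a call that held in all 9 fits without 1 array (1.07 to 1.38) and in the 12 other settings. The non-malignant samples differed from controls by 0.48 (95% interval 0.06 to 0.89, adjusted p = 0.273) and the tumors from non-malignant samples by 0.69 (0.28 to 1.11, adjusted p = 0.0656), and neither passed. The second of these passed without tumor array 1, at 0.90 (adjusted p = 0.00377). By its name suffix the representing probe set can pick up related transcripts. The 2 other Cdk4 probe sets gave the same order of groups without overlap, at 0.68 each in non-malignant samples against controls and at 1.28 and 1.78 in tumors against controls, where all 3 probe sets passed.

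Myc, a known activator of Cdk4, rose in tumors against controls. It read 7.44, 6.90 and 7.12 in the controls, 8.34, 8.27 and 8.10 in non-malignant samples and 8.81, 9.73 and 9.93 in tumors, and no 2 groups overlapped. The tumors were higher than controls by 2.34 (adjusted p = 0.00133) and than non-malignant samples by 1.25 (adjusted p = 0.0433). The second call ended without any 1 array other than tumor array 1. Myc differed by 1.09 in non-malignant samples against controls, which did not pass (limma adjusted p = 0.0805). The bases before the start of Cdk4 are shown because they hold CACGTG, the E-box that Myc and its partner Max can bind. Both sequences below come from RefSeq (GRCm38.p6), lie on the plus strand and run from 250 bases before an annotated start to the base before it. The start used for Cdk6 lies inside the gene, which spans chr5:3341004-3531008, so that window is not upstream of the whole gene. Capitals mark E-boxes and, in Cdk4, 1 match to TGGGAA, the core letters bound by the Notch partner Rbpj.
Cdk4, chr10:127063285-127063534: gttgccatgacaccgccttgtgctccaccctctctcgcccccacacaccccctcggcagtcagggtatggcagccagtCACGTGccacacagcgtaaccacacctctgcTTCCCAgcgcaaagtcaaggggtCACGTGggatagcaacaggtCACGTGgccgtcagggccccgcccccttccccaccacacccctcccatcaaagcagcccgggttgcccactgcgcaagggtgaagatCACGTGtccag
Cdk6, chr5:3343643-3343892: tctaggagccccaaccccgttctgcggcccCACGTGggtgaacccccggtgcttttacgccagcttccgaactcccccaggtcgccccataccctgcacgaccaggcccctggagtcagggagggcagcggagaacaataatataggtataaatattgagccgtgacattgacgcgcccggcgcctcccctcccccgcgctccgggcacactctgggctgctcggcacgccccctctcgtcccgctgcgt

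The Cdk4 sequence held 4 E-boxes, whose first bases lie 172, 118, 98 and 11 bases before the start. The Cdk6 sequence held 1, at 220 bases before the start used for it inside the gene. At least 1 E-box was found in 6.02% of the 32817 promoter windows of this length, and at least 4 in 7 of them, or 0.0213%. Of the 10 genes, 7 had a promoter in the RefSeq table, with 10 windows in all. Both strands were searched for the letters CACGTG of the E-box, for the Rbpj letters TGGGAA and for TGTTTAC, which Foxo factors can bind. They were also searched for E2F letters, which were TTTCCCGC or else TTTGGCGC or else TTTCGCGC. Among the other windows, 1 of Ccnd3 held TGTTTAC (found in 3.16% of all windows), 1 of Cdkn2a held TGGGAA (21.6%) and TTTCCCGC (1.53% for the E2F letters), and the rest held no match. A match describes the sequence and was not linked to binding by any measurement here. The motifs were chosen after the expression values were seen, and whether Myc acts on Cdk4 was not tested.

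Cdk6, the kinase partner that predominates in immature T cells, was also higher, with less certainty. It read 9.96, 9.50 and 9.44 in the controls, 10.40, 10.15 and 10.14 in non-malignant samples and 11.29, 10.47 and 10.14 in tumors. Both groups lay above all controls and overlapped each other, tumor array 1 being the highest of all arrays. The tumors were 2-fold above controls (log2 difference 1.00 ± 0.28 SE, limma adjusted p = 0.0397). The call was close to the threshold: it ended when a control, a non-malignant array or tumor array 2 was left out (adjusted p = 0.0527 to 0.125), and in 6 of the 12 other settings. With 1 array left out the value lay between 0.67, without tumor array 1, and 1.24. The non-malignant samples differed from controls by 0.60 (95% interval −0.03 to 1.23, adjusted p = 0.416). At the 2 brighter Cdk6 probe sets both groups lay above all controls. The third exceeded the 40th percentile on 0 control, 1 non-malignant and 2 tumor arrays. It passed the dim filter only through the groups where it was higher, so nothing is read from it.

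Among the inhibitors, Cdkn2c, which encodes the INK4 protein p18, was lower in the tumors. It read 10.82, 10.20 and 10.73 in the controls, 10.72, 10.55 and 10.50 in non-malignant samples and 10.10, 9.34 and 9.63 in tumors. All 3 tumors lay below all other arrays, tumor array 1 close to control 2, and the other groups overlapped. The tumors were 1.86-fold below controls (log2 difference −0.90 ± 0.23 SE, limma adjusted p = 0.0286) and differed as much from non-malignant samples (−0.90, adjusted p = 0.0588), where the call was missed. The call against controls ended without control 1 or 3, non-malignant array 2 or 3, or tumor array 2 or 3 (adjusted p = 0.0513 to 0.101). Over all 9 fits without 1 array, those that kept the call included, the value lay between −1.10 and −0.72. Cdkn2c stood at the same mean in non-malignant samples and controls, 10.59 and 10.58, with a 95% interval of −0.51 to 0.52 for the difference.

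Cdkn1b, which encodes p27, split the tumors. It read 10.65, 10.63 and 11.05 in the controls, 10.53, 10.62 and 10.53 in non-malignant samples and 10.53, 9.10 and 8.12 in tumors. Tumor array 1 lay at the level of the non-malignant samples, and tumor arrays 2 and 3 lay below every other array. The difference between tumors and controls, −1.53 ± 0.48 (SE), did not pass (limma adjusted p = 0.059). Without tumor array 1 it was −2.17 (adjusted p = 0.000904). It also passed with quantile normalization (−1.43, adjusted p = 0.0413), with the mean of its probe sets (−1.06, adjusted p = 0.0493) and with array weights. The second Cdkn1b probe set gave 7.01, 6.55 and 7.08 in controls and 6.68, 5.96 and 6.23 in tumors, a difference of −0.59 (adjusted p = 0.11) with overlap. The bioB and 18S signals were highest on tumor array 3, where Cdkn1b was lowest; non-malignant array 3, with an 18S signal of 10.70, had Cdkn1b at 10.53. The part of these signals in the result was not tested.

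For the neighbouring INK4 genes on chromosome 4, Cdkn2a was dim on every array and Cdkn2b lay above the dim limit on all 9. Cdkn2a, which encodes p16Ink4a and, in another reading frame, p19Arf, read 4.39, 4.54 and 4.72 in the controls, 4.34, 4.78 and 4.54 in non-malignant samples and 5.14, 4.91 and 4.85 in tumors. All 9 values lay under the 40th percentile of their array, a range in which signal and background could not be separated. Within that range the tumors lay above the other arrays, by 0.42 on average against controls, and this was not tested (adjusted p = 0.119 in the fit without the dim filter). Its single probe set does not tell the 2 products apart. Cdkn2b, which encodes p15, read 5.92, 6.11 and 5.90 in the controls, 5.64, 5.84 and 5.96 in non-malignant samples and 5.87, 5.92 and 5.90 in tumors. The 3 groups overlapped, and its levels lay close to the array medians. Tumors differed from controls by −0.08 (95% interval −0.37 to 0.21) and non-malignant samples by −0.16 (−0.46 to 0.13).

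Rb1, the substrate of the D cyclin kinases, was lower in the tumors. It read 9.94, 9.64 and 10.29 in the controls, 9.65, 9.87 and 9.54 in non-malignant samples and 9.32, 8.07 and 7.30 in tumors. All tumors lay below all other arrays, tumor array 1 closest to them and tumor array 3 farthest. The tumors were 3.31-fold below controls (log2 difference −1.73 ± 0.43 SE, limma adjusted p = 0.025) and differed from non-malignant samples by −1.46 (adjusted p = 0.0836). The call against controls ended without any 1 control or tumor array 2 (adjusted p = 0.0562 to 0.0881), and its value ranged from −2.27 without tumor array 1 to −1.26 without tumor array 3. In a fit of tumors and controls alone it did not pass (adjusted p = 0.077). Rb1, like Cdkn1b, was lowest on the array with the highest bioB and 18S signals. In bulk RNA, fewer cells that express a gene and less RNA of it per cell cannot be told apart.

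**Figure D3:**
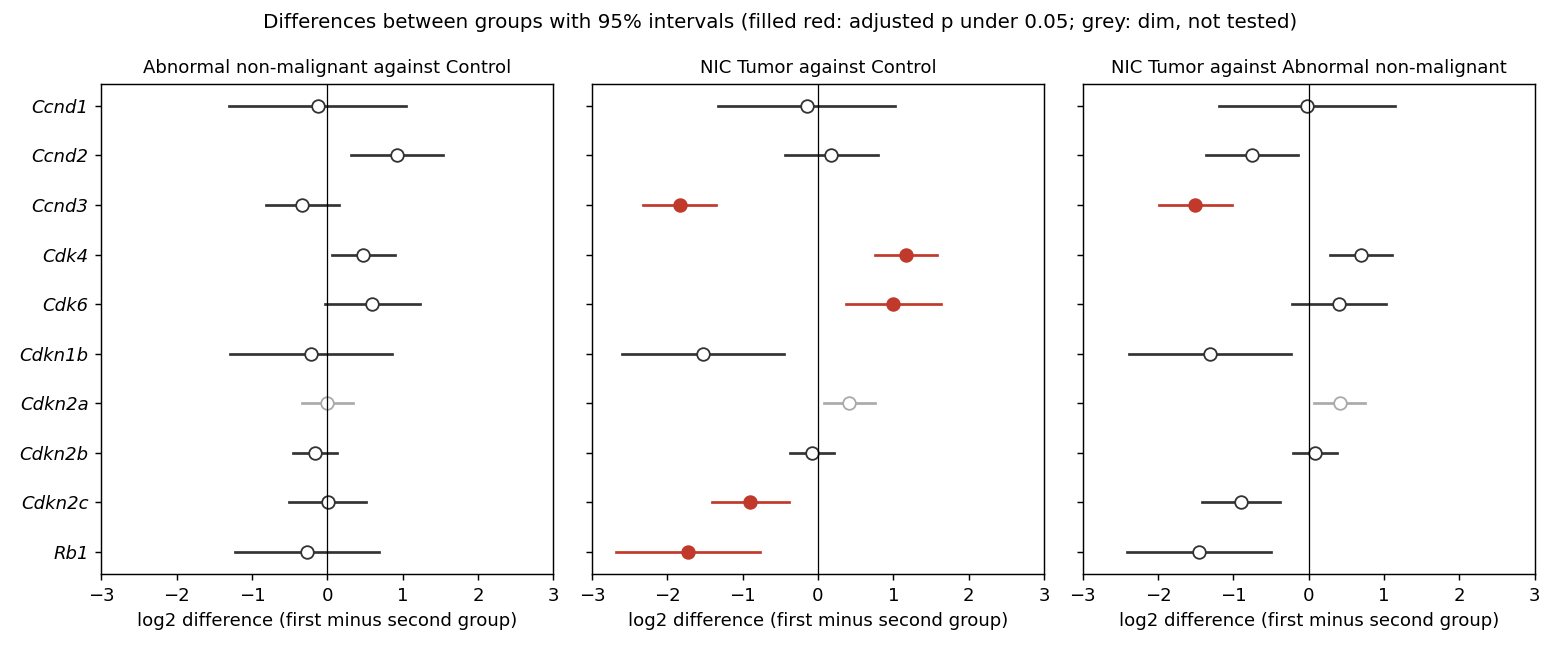
Log2 difference between groups (horizontal axis, first minus second group) with its 95% interval from the limma fit, for the 10 genes in the 3 comparisons; filled red symbols have an adjusted p under 0.05, and grey marks Cdkn2a, which was dim and not tested. In tumors against controls 5 genes are filled, in tumors against non-malignant samples only Ccnd3, and in non-malignant samples against controls none.

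The other genes of the pathway were taken from 6 written lists. Their counts stand beside the 15.7% of all genes called in tumors against controls, 8.48% higher and 7.19% lower, and nothing particular to a list is read from them. The first list held 11 cyclins, kinases, inhibitors and other regulators of the cyclin E and A kinases or of Cdk4 and Cdk6. Of these, Cdk7 rose and Cdkn2d and Ccne2 fell in tumors against controls (1 higher and 2 lower of 11, list median −0.499, beside 0.0638 over all genes tested). Cdkn2d encodes p19Ink4d, the INK4 inhibitor not described above. It read 11.50, 11.34 and 11.54 in the controls, 11.12, 11.24 and 11.26 in non-malignant samples and 10.39, 9.88 and 8.93 in tumors. The tumors were lower by 1.72 on the log2 scale than controls (−1.72 ± 0.30 SE, adjusted p = 0.00732), a call held in all 9 fits without 1 array, and differed by −1.47 from non-malignant samples (adjusted p = 0.0343), a call that ended in 6 of those 9 fits. Ccne2, one of the cyclin E genes, fell by 2.48 against controls (adjusted p = 0.0105) to values of 5.91, 4.66 and 3.66, the last 2 of them under the 40th percentile of the array, so its size is uncertain. Cdk7, the catalytic subunit of the Cdk-activating kinase, rose by 0.61 (adjusted p = 0.0297, 3 of 9 fits without 1 array).

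Of the 12 pocket protein, E2F and DP genes, E2f2 and E2f8 fell in tumors against controls and none rose (2 of 12, near the 15.7% of all genes, list median −0.0343). E2f2, an activating E2F, read 11.64, 10.44 and 11.97 in controls and 9.22, 10.40 and 8.60 in tumors, a difference of −1.94 (adjusted p = 0.0257) that lost its call without control 1, control 3 or tumor array 3. E2f8, a repressive E2F, had −1.22 (adjusted p = 0.0364, 2 of 9 fits without 1 array). Rbl2, a second pocket protein named after its value was seen, did not pass (−2.06, adjusted p = 0.0544). Of 17 tested E2F-driven replication genes, Mcm3, a subunit of the replicative helicase, rose (1.33, adjusted p = 0.00822), Rrm2, a ribonucleotide reductase subunit, fell (−0.96, adjusted p = 0.00836), and so did Pcna (−0.48, adjusted p = 0.0392, 3 of 9 fits without 1 array), while 14 did not pass (list median 0.0230). In these 3 lists none of the 40 genes tested passed in non-malignant samples against controls by limma (against 3.53% of all genes), and 4 had an unadjusted p under 0.05 (against 13.3%). In tumors against non-malignant samples 2 of the 40 passed, Cdkn2d and Ccne2, both lower, against 4.23% of all genes. That call of Ccne2 (−2.21, adjusted p = 0.0403) held in 1 of 9 fits without 1 array and in 7 of the 12 other settings.

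Among 15 genes that act on the turnover of D cyclins and p27, Fbxo31, Cops5 and Fbxo4 rose and Skp2 fell in tumors against controls (3 higher and 1 lower of 15, against 8.48% and 7.19% of all genes, list median 0.264). Fbxo31 and Fbxo4 encode F-box proteins reported to target cyclin D1, and had 0.98 (adjusted p = 0.0145, ending without control 2) and 0.65 (adjusted p = 0.0423, 2 of 9 fits without 1 array). Skp2, the F-box protein that marks p27 for degradation, had −1.28 (adjusted p = 0.0436, 3 of 9 fits). Cops5, a subunit of the COP9 signalosome, had 0.84 (adjusted p = 0.0155, 6 of 9 fits). Of 15 tested regulators of the Cdkn2a and Cdkn2b locus, Ezh2, the Polycomb methyltransferase, fell by 0.72 (adjusted p = 0.0297, 3 of 9 fits), and Dmtf1, an activator of Arf, fell by 1.69 (adjusted p = 0.022, 6 of 9 fits); 13 did not pass (list median −0.277). This count of 2 in 15 is no larger a share than the 15.7% of all genes.

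Of 9 regulators of p27 and p18 transcription, Myc rose and Foxo4, Foxo3, Gata3 and Gfi1 fell in tumors against controls (1 higher and 4 lower of 9, against 8.48% and 7.19% of all genes, list median −0.724). Foxo4 and Foxo3, Foxo factors that can activate Cdkn1b, had −1.18 (adjusted p = 0.022, 5 of 9 fits without 1 array) and −0.81 (adjusted p = 0.0334, 3 of 9 fits). Gata3, a T lineage transcription factor, had −1.28 (adjusted p = 0.0338, 3 of 9 fits), and Gfi1, a transcriptional repressor, had −1.47 (adjusted p = 0.0388, 2 of 9 fits). Foxo1, another of them, read 7.93, 8.22 and 8.61 in the controls, 10.09, 9.69 and 9.62 in non-malignant samples and 9.29, 8.08 and 7.89 in tumors. It rose in non-malignant samples against controls by 1.55 (adjusted p = 0.0433, 2 of 9 fits without 1 array), the 1 call of these 9 genes in that comparison, while Cdkn1b there differed by −0.22 (95% interval −1.29 to 0.85). In tumors against non-malignant samples Myc rose, and Gfi1 (−1.74, adjusted p = 0.0476) and Men1 (−0.73, adjusted p = 0.0419) fell, each held in 1 or 2 of the 9 fits without 1 array.

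**Figure D4:**
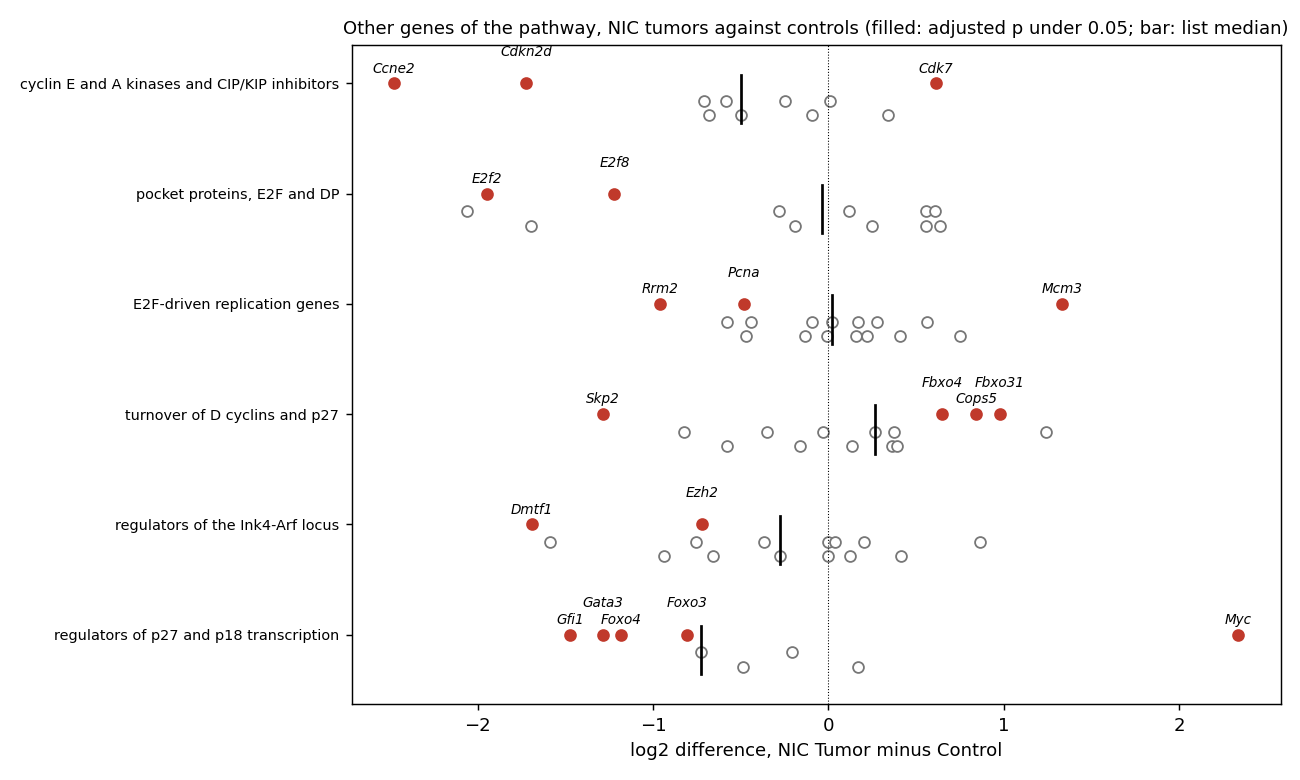
Log2 difference of tumors minus controls (horizontal axis) for every tested gene of the 6 lists; filled red points have an adjusted p under 0.05 and are named, open points do not, and black bars are list medians. Called genes lie on both sides of 0 in 4 of the 6 lists, and only below it for the pocket protein and E2F genes and for the regulators of the Ink4-Arf locus.

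The genes whose pattern was most like that of each called gene were found by Pearson correlation over the 9 arrays, which fall into groups, so that these values describe group differences as much as variation within groups. For Ccnd3 they were Skap1 (0.991), an adaptor of T cell receptor signalling, Lrrc8c (0.979) and Tnik (0.975). For Cdk4 they were Timm10 (0.996), a mitochondrial import chaperone, Polr2f (0.993), a subunit shared by the RNA polymerases, and Cluh (0.993), which binds mRNAs of mitochondrial proteins. For Cdk6 they were Ankrd37 (0.975), Lrrc8d (0.948) and Ano10 (0.941), for Cdkn2c Spc25 (0.979), a kinetochore protein, Ltb (0.969) and Pisd-ps3 (0.965), and for Rb1 Vav2 (0.989), Dck (0.988), the deoxycytidine kinase, and Rasl11b (0.987).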

How the data were processed

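RNA of sorted mouse cells was taken with TRIZOL and RNeasy, made into biotin-labelled cRNA and run by a microarray core, per the labels' protocols. The authors deposited a table of log2 values for 45101 probe sets on 9 arrays; their background correction, normalization and summarization are not given in the sources used here, and the log2 scale was read from the values. Array CGH and karyotyping were not used here. Probe sets with 1 symbol in the platform annotation (34945) were named, by Entrez ID where possible, which gave 18193 genes, each represented by the probe set with the highest mean. Testing was limited to the 13296 genes whose probe set exceeded the 40th percentile on 3 or more arrays. With pandas 2.3.3 (Python 3.11.15) and limma 3.58.1 (R 4.3.3), a mean for each group was estimated from all 9 arrays with a variance trend (6 residual and 3.6 prior degrees of freedom), and p-values were adjusted by Benjamini-Hochberg over all genes tested; a gene passed, or was called, under 0.05. The script was tested on simulated data. With 3 samples against 3, the smallest p of an exact permutation test is 0.1. Precision is limited by the 9 arrays. The members, the lists and the alternatives were chosen with earlier results of these data known, and the sequence motifs after the values here were seen. Genes named are the 10 members, up to 4 called genes per list and comparison by smallest adjusted p, the genes beside Cdkn2a and Cdkn2b, and the 3 genes most correlated with each called member; others are named as chosen later. The alternatives were median and quantile scaling, 2 other dim filters, 2 other uses of probe sets, 3 other variance models or weights, only 2 groups in the fit, the replicate number as a block, non-malignant arrays 2 and 3 averaged, and each array left out.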

Additional observations from a re-analysis of the deposited data

How the results depend on the processing

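Of the 9 tested genes, tumors against controls gave 5 calls in the reported fit, 2 with only these groups in the fit, 3 with non-malignant arrays 2 and 3 averaged, 6 with quantile normalization, 7 with array weights, and 2 to 6 with 1 array left out. Non-malignant samples against controls gave 0, but 3 with array weights, 1 with only these groups, and 0 to 1 with 1 array left out. Tumors against non-malignant samples gave 1, but 2 with the dim filter at the 60th percentile, 0 with the mean of all probe sets, 5 with array weights, 2 with the replicate number as a block, and 1 to 5 with 1 array left out. Over all genes, the 469 calls in non-malignant samples against controls became 2421 with array weights, 1119 with 2 groups, 206 with the averaged arrays and 203 to 709 with 1 array left out. The 2083 in tumors against controls became 3278 probe sets when each was fitted alone, 4885 with array weights, 841 with 2 groups and 922 to 4119 with 1 array left out. The 562 in tumors against non-malignant samples became 5700 with array weights, 110 with 2 groups, 287 with the replicate block, 66 with the averaged arrays and 57 to 3408 with 1 array left out. The cause was not tested. Arrays of the same number in different groups deviated from their group means with correlations of −0.047 to 0.222. Arrays of different number gave −0.262 to 0.211. These ranges overlap, and the numbers were not taken to pair the samples. The 18S signal nevertheless rose from array 1 to array 3 within each group. It went from 5.686 to 8.015 (Control), 5.674 to 10.7 (Abnormal non-malignant) and 5.862 to 10.937 (NIC Tumor). The bioB signal rose with the number among tumor arrays only. Whether the numbers carry other shared structure was not tested. With the block Cdkn2c passed in tumors against non-malignant samples (adjusted p = 0.0499).

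Signs changed only for differences that did not pass in the reported fit; one of them, Ccnd2 in tumors against controls, passed with array weights (0.62, adjusted p = 0.0413). Cdkn2c in non-malignant samples against controls (0.0049) was −0.050 with quantile normalization, −0.13 with array weights and −0.18 to 0.12 with 1 array left out. Ccnd1 was 0.20 in tumors against controls and 0.29 in tumors against non-malignant samples with the mean of its probe sets, and 0.029 in the latter with array weights; with 1 array left out it lay between −0.80 and 0.37, −0.35 and 0.31 and, in non-malignant samples against controls, −0.78 and 0.39. Ccnd2 in tumors against controls lay between −0.095 and 0.47, and Cdkn2b in tumors against non-malignant samples between −0.006 and 0.15.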

Other observations

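The genes next to Cdkn2a and Cdkn2b on chromosome 4 in the RefSeq table, Tgif2-ps1, Gm12610 and Gm12608, had no probe set of their own and were not analysed here. The nearest protein-coding genes on either side, chosen after that was known, were Mtap and Dmrta1. Mtap, an enzyme of methionine salvage that is often lost together with CDKN2A in human cancers, read 7.95, 7.78 and 8.12 in controls, 8.44, 8.72 and 8.68 in non-malignant samples and 8.54, 8.36 and 8.59 in tumors. Both groups lay above all controls, by 0.67 (limma adjusted p = 0.0653) and 0.55 (limma adjusted p = 0.052), and neither passed. Dmrta1 lay under the 40th percentile on all 9 arrays.

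Markers of other cell types were also read. The log2 summed level of 10 myeloid markers was 9.13 to 9.33 in the control arrays, 10.16 to 10.37 in the non-malignant ones and 9.61 to 10.93 in the tumor ones. In non-malignant samples against controls S100a8, S100a9 and Ctss differed by 2.76, 2.61 and 2.34. The other markers tested differed there by 0.03 to 0.34. Of the 8 tested, the protease gene Ctss alone passed, higher than controls in both comparisons. Over all genes 2.87% were called higher in non-malignant samples and 8.48% in tumors. In the same order of groups, the log2 summed level of 4 erythroid markers was 8.15 to 8.27, 8.71 to 8.79 and 8.51 to 9.90. That of 6 B cell markers was 8.64 to 9.12, 8.04 to 8.61 and 8.14 to 8.92. Of the 5 B cell markers tested, Cd79b alone, a subunit of the B cell receptor, fell in tumors against controls (−1.38, limma adjusted p = 0.047, 2 of 9 fits without 1 array). Over all genes 7.19% were called lower there. Cd79b differed by −1.49 in non-malignant samples against controls (limma adjusted p = 0.0967).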
